A study of Mus musculus with 12 samples.

Results

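The genes described here are 10 components of the pattern recognition system of the gut epithelium, namely the Toll-like receptors *Tlr1*, *Tlr2*, *Tlr3*, *Tlr4* and *Tlr5*, the intracellular receptors *Nod1* and *Nod2*, the co-receptor *Cd14*, the adaptor *Myd88* and the kinase *Ripk2*. They were chosen by name as a family and not by a rule on measured values, with earlier results of these data known. All 10 were found among the 34245 genes of the deposited count table. Poly(A)+ RNA was sequenced from stem cells (ISC) and adult enterocytes (AE) sorted from the small intestine of male C57BL/6 mice, which in every group carried the Lgr5-EGFP-IRES-creERT2 knock-in. There were 3 libraries of each cell type from a young cohort with a mean age of 33 weeks and 3 from an aged cohort whose mean age was over 2 years, 12 in all. ISC were sorted from crypt suspensions as GFP-high DAPI- cells without antibody staining. The gate thus rests on the *Lgr5* promoter, with no antibody step against leukocytes. AE were sorted from villus suspensions as Epcam-high cells negative for CD31, CD45 and DAPI, a gate that keeps any Epcam-high villus cell and not enterocytes alone. The labels name no treatment in any group. The methods list the ages of 3 sequenced mice per cohort, 1 for each library of a cell type. The p-values thus measure the spread between mice within each group. Libraries are named by the codes of the table, young 1, 2 and 3 and aged 1, 3 and 5. ISC and AE of the same code were taken to come from the same mouse. The main tests across cell types treated libraries as independent and did not use this pairing. Fits with the code as a replicate block were run as an alternative.

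Toll-like receptors recognise conserved microbial molecules at the cell surface or in endosomes. All of them except TLR3 signal through the adaptor MyD88 to NF-kB, and TLR3 signals through the adaptor TRIF. NOD1 and NOD2 sense fragments of peptidoglycan in the cytosol and pass the signal through the kinase RIPK2. In the intestine these receptors are known for their part in tolerance of the microbiota, in the release of antimicrobial peptides and in repair of the epithelium after injury.

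Library totals lay between 11893817 and 16475043 counts in 10 of 12 libraries, and at 26796461 in aged ISC 1 and 110794420 in young AE 3. A floor of 3 counts therefore stood for 0.0359 to 0.327 CPM, the read count scaled to library size with TMM factors, and floors cover counting error only. The defining markers fitted the cell types that the library codes name. The stem cell receptor *Lgr5* was at 79.7 to 146 CPM in ISC and 0.550 to 4.72 in AE, and the villus structural gene *Vil1* at 416 to 752 CPM in ISC and 4259 to 6163 in AE. In 8 of 12 sample titles the words after the code contradict it, and these markers do not check the age that a code gives. AE libraries differed in their remaining stem cell signal, with a summed level of 8 stem cell markers of 197 CPM in young AE 1, 587 in young AE 2, 79.7 in young AE 3 and 93.7 to 165 in aged AE. The summed level of 9 Paneth cell markers was 594 to 1760 CPM for young and 666 to 1151 CPM for aged ISC libraries, and 54.5 to 242 and 55.8 to 98.8 CPM for those of AE. In bulk RNA of this kind, fewer cells of a type and less RNA per cell cannot be told apart.

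The members included genes that were higher in ISC and genes that were higher in AE, as did all genes tested. Of those, 27.7% were called higher and 25.4% lower in AE of young mice, and 30.0% and 34.1% in aged mice. *Tlr1*, *Nod1* and *Cd14* were lower in AE than in ISC at both ages, with fitted levels 3.85 to 8.33 times lower, and *Tlr3*, the receptor for double-stranded RNA, was higher in AE, by 2.37-fold in young and 2.32-fold in aged mice. *Myd88* was 1.29-fold higher in AE of young and 1.14-fold higher in AE of aged mice, without passing the test, and was the most abundant member per length of transcript in every group. *Tlr4* and *Tlr5* were at or near the floor. No member passed the test between young and aged mice in either cell type.

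**Figure D1:**
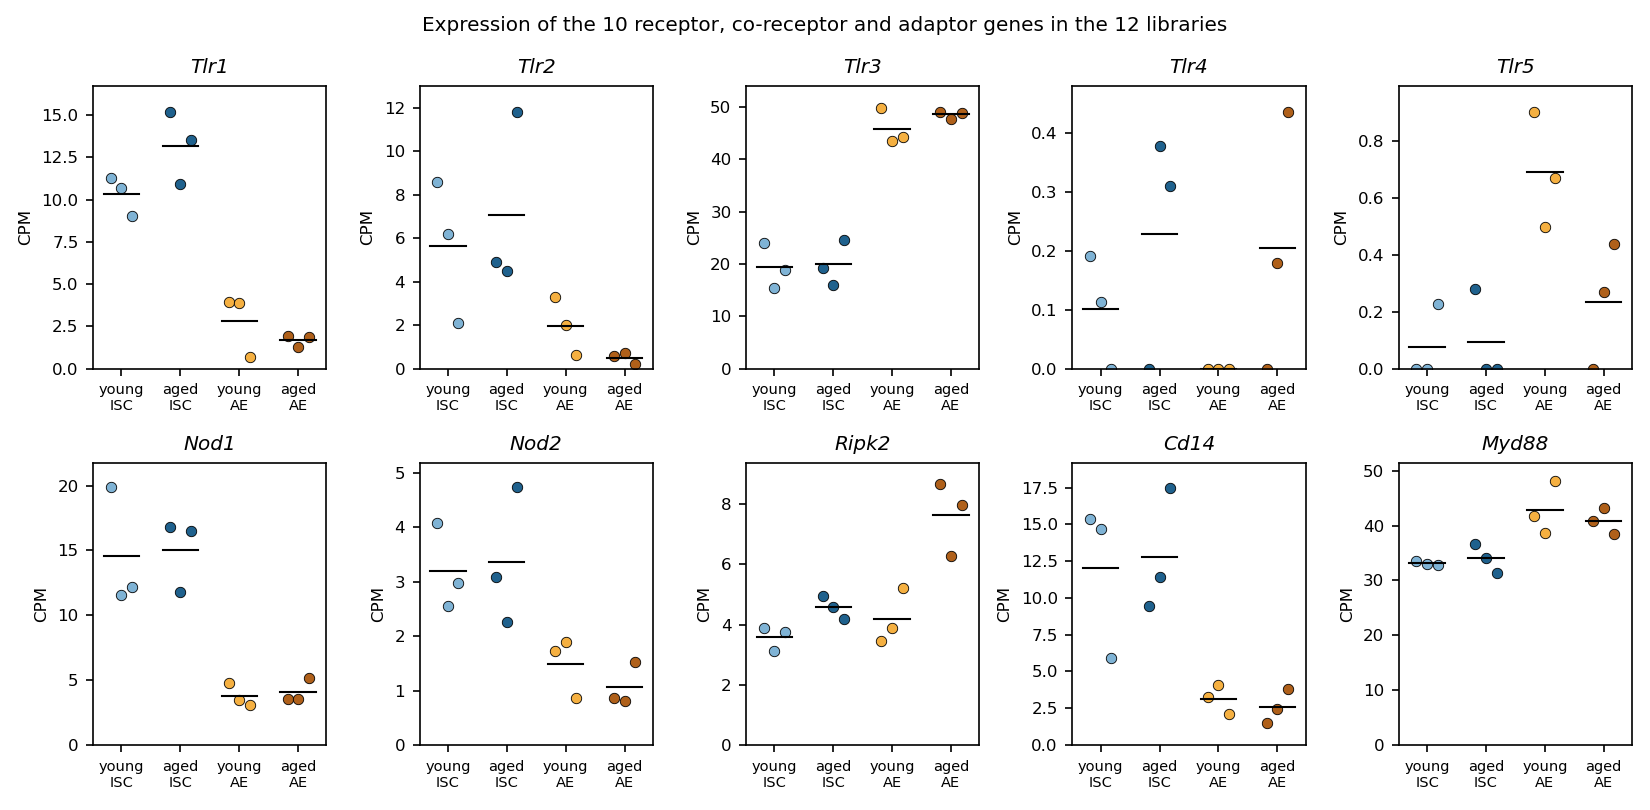
CPM (vertical axis, linear, from 0, with its own range for each gene) of each of the 10 genes in the 12 libraries, with 1 point per library in the order of its code and a line at the mean of each group of 3. *Tlr1*, *Nod1* and *Cd14* lie lower in every AE library than in every ISC library, *Tlr3* lies higher in every AE library, and *Tlr4* and *Tlr5* stay below 1 CPM throughout.

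Levels of different genes were compared as CPM per kb of merged exons. *Myd88* stood first in every group, at 12.9 and 13.2 CPM per kb in ISC of young and aged mice and 16.6 and 15.9 in AE, apart from the next gene in every library. Of all genes above 0, 77.7% were lower than *Myd88* in young ISC and 80.5% in young AE. In young ISC the order went on with *Cd14* at 6.93 CPM per kb, *Tlr3* at 3.72, *Tlr1* at 3.10, *Nod1* at 2.86 and *Tlr2* at 1.87, and the libraries of each of these overlapped with those of its neighbour. *Ripk2* at 1.28 and *Nod2* at 0.639 followed, the last apart from both of its neighbours. Aged ISC had the same order except that *Tlr1*, at 3.94, and *Tlr3*, at 3.82, changed places within their overlap. Exon lengths were used in full, although 15.4% of the stretches of 50 bases in *Tlr1* transcripts also occur in other genes. The level of *Tlr1*, from uniquely mapped reads, may thus be too low in this order.

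In AE, *Tlr3* took the place after *Myd88*, at 8.80 CPM per kb in young and 9.32 in aged libraries, apart from the genes on both sides. *Cd14* at 1.82 and *Ripk2* at 1.48 overlapped in young AE, whereas *Ripk2* at 2.71 stood above *Cd14* at 1.49 without overlap in aged AE. *Tlr1*, *Nod1*, *Tlr2* and *Nod2* had means below 1 CPM per kb in AE of both ages.

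*Tlr1* and *Tlr2* encode surface receptors that pair with each other to sense triacylated bacterial lipopeptides. *Tlr1* (ENSMUSG00000044827; GRCm38 chromosome 5, 64924679 to 64933563, minus strand) was read at 11.3, 10.7 and 9.04 CPM in the young ISC libraries and at 15.2, 10.9 and 13.5 CPM in the aged ones. In AE it was at 3.93, 3.89 and 0.682 CPM in young libraries and at 1.90, 1.25 and 1.85 CPM in aged ones. Every AE library was below every ISC library of its age, and young AE 3, the deepest library with the least stem cell signal, was the lowest of the 12.

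The *Tlr1* mRNA was 3.85 times lower in AE than in ISC of young mice (log2 fold change -1.94 ± 0.59 SE, FDR = 0.0242). Without young ISC 1 or young ISC 2 this call was lost, with FDR values of 0.0711 and 0.0620. In aged mice it was 8.33 times lower (log2 fold change -3.06 ± 0.27 SE, FDR = 7.17e-06), a call that remained without any single library. The difference between the ages, -1.02 ± 0.70 on the log2 scale, did not pass the test (FDR = 1.000).

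*Tlr1* shares sequence with its neighbour *Tlr6*, which also pairs with TLR2. Of 2336 stretches of 50 bases in the coding sequence of *Tlr1*, 454 (19.4%) also occur in that of *Tlr6*, and a read of this length that starts there has no unique place. The longest run common to both is printed since a read of 50 bases wholly within it cannot count for either gene. This run holds only a part of the shared stretches. It is 229 bases long, entirely coding, and lies on the minus strand of GRCm38 at chr5:64925537-64925765 in *Tlr1* and at chr5:64953828-64954056 in *Tlr6*. It is written without capitals because all its bases are the same in both genes.
*Tlr1* and *Tlr6*: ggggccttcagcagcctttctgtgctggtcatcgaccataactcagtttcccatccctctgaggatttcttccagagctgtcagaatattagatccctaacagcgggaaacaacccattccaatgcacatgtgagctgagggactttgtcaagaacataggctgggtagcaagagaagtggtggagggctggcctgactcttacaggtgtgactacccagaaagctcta

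The counts of *Tlr6* were far below those of *Tlr1*. It had 0 counts in the 3 young ISC libraries and 16, 9 and 11 counts in the aged ISC libraries, or 0.449, 0.486 and 0.489 CPM. Against 3 counts per young library the aged level was at least 2.69-fold higher, but the gene was not called (unadjusted p = 0.00203 and FDR = 0.718 in edgeR's quasi-likelihood test). In AE it had 0, 4 and 15 counts in young and 4, 6 and 14 counts in aged libraries.

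*Tlr2* (ENSMUSG00000027995; chromosome 3, 83836272 to 83841767, minus strand) varied widely within groups. Young ISC libraries had 8.60, 6.19 and 2.08 CPM and aged ones 4.88, 4.48 and 11.8 CPM. Young AE libraries had 3.27, 1.99 and 0.622 CPM, and aged ones 0.571, 0.717 and 0.218 CPM from 6, 8 and 2 counts. The young groups overlapped, and the aged groups did not.

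In aged mice *Tlr2* was 14.2 times lower in AE (log2 fold change -3.83 ± 0.55 SE, FDR = 0.000190), the largest difference of a called member between the cell types. In young mice it was 3.01 times lower and missed the threshold (-1.59 ± 0.70 SE, FDR = 0.0875). With the library code as a replicate block, which compares the ISC and AE libraries of the same code, the young difference passed (-1.58 ± 0.32 SE, FDR = 0.00323). It also passed with DESeq2 (FDR = 0.0405) and without young ISC 3 (FDR = 0.0397), but under none of the other settings tried.

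Among ISC libraries the levels of *Tlr2* and *Cd14* were read beside marker levels. In the order of the codes the Paneth cell marker sum was 1760, 1076 and 594 CPM for young and 783, 666 and 1151 CPM for aged libraries. The library with the highest *Tlr2* at each age, young ISC 1 and aged ISC 5, also had the highest Paneth sum of its group, and the lowest, young ISC 3 and aged ISC 3, the lowest sum. *Lgr5*, at 135, 81.5 and 79.7 CPM in young and 113, 98.1 and 146 CPM in aged ISC, ranked the libraries of each age in the same way. The summed stem cell markers were also highest in young ISC 1 and aged ISC 5, at 7717 and 8005 CPM, as were the monocyte, macrophage and neutrophil markers, at 15.5 and 21.9 CPM, so the match was not particular to Paneth cells. *Cd14* was highest in the same libraries, at 15.4 and 17.5 CPM, but its lowest aged library was aged ISC 1, at 9.48 CPM, and not aged ISC 3. The part of any of these cell types in the levels was not tested.

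The RefSeq promoter table of GRCm38.p6 held 7 of the 10 genes. Within 250 bases before the listed start, *Tlr2* had 2 overlapping matches to the NF-kB consensus, read on both strands, which 7.25% of 32817 promoters hold. The stretch of its window outside annotated exons, chr3:83841768-83841858 on the minus strand, is shown because NF-kB is the factor on which these receptors converge, with the matches in capitals.
*Tlr2*: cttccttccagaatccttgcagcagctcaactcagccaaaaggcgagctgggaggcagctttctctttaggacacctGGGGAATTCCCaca
*Tlr3* had 1 match to the same consensus, the first listed start of *Tlr1* had 1 match to the ETS motif AGGAAGT, held by 7.69% of promoters, and none of 4 motifs was found before the starts of *Tlr5*, *Nod1* and *Nod2*. The HNF4A motif CAAAGTCCA, held by 0.384% of promoters, was in none of the windows. A match describes letters and not a bound site.

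*Tlr3* (ENSMUSG00000031639; chromosome 8, 45395665 to 45411080, minus strand) encodes the endosomal receptor for double-stranded RNA. Young ISC libraries had 24.0, 15.3 and 18.8 CPM and aged ones 19.2, 16.0 and 24.5 CPM. Young AE libraries had 49.7, 43.5 and 44.3 CPM and aged ones 49.1, 47.7 and 48.9 CPM. The AE libraries lay close together and all above the ISC libraries. The difference was 1.24 ± 0.20 SE on the log2 scale in young mice (FDR = 0.00132) and 1.21 ± 0.18 in aged mice (FDR = 0.000197), and no alternative ended either call. Of the exons of *Tlr3*, 381 bases overlap *Gm45542* on the opposite strand, which had 0 to 3 counts in every library.

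*Tlr4* (ENSMUSG00000039005; chromosome 4, 66827584 to 66930284, plus strand), the receptor for lipopolysaccharide, was barely read. Young ISC libraries had 3, 2 and 0 counts and aged ones 0, 7 and 7, whereas the 3 young AE libraries had 0 and the aged ones 0, 2 and 4. No difference was detectable at this depth, and no fold is given. Its partners were not alike: *Ly96*, which encodes the secreted MD-2, was at 1.78 to 5.57 CPM over all libraries and *Cd14* was well above the floor. *Lbp*, the carrier of lipopolysaccharide, was below 1 CPM in every library.

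*Tlr5* (ENSMUSG00000079164; chromosome 1, 182954788 to 182976044, plus strand), the receptor for flagellin, was read in few ISC libraries, with 0, 0 and 4 counts at the young and 10, 0 and 0 counts at the old age. In AE it had 11, 6 and 56 counts in young libraries and 0, 3 and 4 in aged ones, or 0.900, 0.496 and 0.670 CPM against 0, 0.269 and 0.436. All young AE libraries were thus above all ISC libraries. The young AE level passed the test against ISC (log2 fold change 3.08 ± 1.13 SE, FDR = 0.0484), but not with the replicate block (3.30 ± 1.23, FDR = 0.0518), with upper-quartile scaling (FDR = 0.0564), in a fit of all 4 groups (FDR = 0.0736) or in 5 of 6 fits without a library. Without any single library the log2 fold change ranged from 2.52 to 7.29, the latter without young ISC 3, which held all counts of *Tlr5* in young ISC.

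*Nod1* (ENSMUSG00000038058; chromosome 6, 54923949 to 54972612, minus strand) senses peptidoglycan that holds diaminopimelic acid. Young ISC libraries had 19.9, 11.6 and 12.2 CPM and aged ones 16.8, 11.8 and 16.5 CPM. Young AE libraries had 4.75, 3.47 and 3.11 CPM and aged ones 3.52, 3.58 and 5.13 CPM. The cell types did not overlap. In AE relative to ISC *Nod1* differed by -1.96 ± 0.31 SE on the log2 scale in young mice (FDR = 0.00120) and by -1.96 ± 0.25 in aged mice (FDR = 7.34e-05), 3.89 and 3.90 times lower, and no alternative ended either call.

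*Nod2* (ENSMUSG00000055994; chromosome 8, 88647315 to 88688474, plus strand), the sensor of muramyl dipeptide, was at 4.08, 2.56 and 2.98 CPM in the young ISC libraries and at 3.09, 2.27 and 4.75 CPM in the aged ones. In AE it was at 1.72, 1.90 and 0.861 CPM in young and 0.856, 0.807 and 1.53 CPM in aged libraries. Every AE library was below every ISC library of its age. In aged mice it was 3.36 times lower in AE (log2 fold change -1.75 ± 0.44 SE, FDR = 0.00599). In young mice the difference of -1.14 ± 0.44 missed the threshold (FDR = 0.0578). It passed under 5 of 8 other settings, the replicate block (-1.18 ± 0.42, FDR = 0.0434), DESeq2 (FDR = 0.0335), upper-quartile scaling (FDR = 0.0442), a fit of all 4 groups (FDR = 0.0363) and a robust fit chosen after seeing the data (FDR = 0.0361), and in 1 of 6 fits without a library.

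*Ripk2* (ENSMUSG00000041135; chromosome 4, 16122733 to 16163647, minus strand), the kinase that both NOD receptors use, did not share their distribution. Young ISC libraries had 3.89, 3.12 and 3.76 CPM and aged ones 4.94, 4.59 and 4.18 CPM. Young AE libraries had 3.44, 3.89 and 5.21 CPM and aged ones 8.66, 6.27 and 7.96 CPM. The young groups overlapped, and all aged AE libraries were above all others. In young mice the difference between AE and ISC was 0.23 ± 0.31 SE (FDR = 0.547). In aged mice it was 0.66 ± 0.24, 1.58-fold higher in AE (FDR = 0.0342), a call lost with upper-quartile scaling (FDR = 0.0640) and in 5 of 6 fits without a library (FDR from 0.0615 to 0.110).

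*Cd14* (ENSMUSG00000051439; chromosome 18, 36725074 to 36726736, minus strand) encodes the co-receptor that hands lipopolysaccharide to TLR4 and lipopeptides to TLR2. The ISC libraries had 15.4, 14.7 and 5.95 CPM at the young age and 9.48, 11.4 and 17.5 CPM at the old one. The AE libraries had 3.27, 4.05 and 2.13 CPM and 1.52, 2.42 and 3.82 CPM, in the same order. The lowest ISC library, young ISC 3, was above the highest AE library. *Cd14* was 3.88 times lower in AE of young mice (log2 fold change -1.96 ± 0.43 SE, FDR = 0.00556) and 5.23 times lower in aged mice (-2.39 ± 0.37, FDR = 0.000280), and no alternative ended either call.

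*Cd14* and *Tlr2* are also genes of monocytes and macrophages, and the ISC gate selected GFP-high cells without an antibody against CD45. Summed, markers of those cells were lower in ISC than in AE. Among them *Itgam* had the highest mean in every group, at 7.43 and 10.9 CPM in ISC of young and aged mice and 12.7 and 17.5 CPM in AE. The summed level of 14 monocyte, macrophage and neutrophil markers was 11.4 to 15.5 CPM in the young ISC libraries and at most 21.9 CPM in the aged ones, against 24.5 to 32.3 CPM and 27.2 to 41.8 CPM in the AE libraries of the same ages. In young ISC 8 of the 14 were at 0 in all libraries, among them *Csf1r*, *Adgre1* and *Tyrobp*, and *Csf1r* had at most 1 count in any aged ISC library. The leukocyte gene *Ptprc*, which encodes CD45, was at 2.32 ± 1.12 CPM (SD, n = 3) and 1.20 ± 0.69 CPM in ISC of young and aged mice, against 9.63 ± 4.96 and 8.96 ± 1.26 in AE. Means went the other way for *Cd68*, at 2.23 ± 1.62 and 2.28 ± 0.79 in ISC against 0.921 ± 0.205 and 0.635 ± 0.300 in AE. So did those of *Lyz2*, at 0.460 and 0.278 in ISC against 0.394 and 0.234 in AE. The part of such cells in the levels of *Cd14* and *Tlr2* was not tested.

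*Myd88* (ENSMUSG00000032508; chromosome 9, 119335934 to 119341411, minus strand), the adaptor common to the Toll-like receptors apart from TLR3, varied little between libraries. The 3 young ISC libraries lay between 32.9 and 33.6 CPM, and the aged ones had 36.6, 34.1 and 31.4 CPM. The AE libraries had 41.7, 38.6 and 48.2 CPM in the young and 40.9, 43.2 and 38.4 CPM in the aged cohort. All AE libraries were above all ISC libraries of their age, by 0.37 ± 0.15 SE on the log2 scale in young (FDR = 0.0735) and 0.19 ± 0.14 in aged mice (FDR = 0.267). The young difference passed in a fit of all 4 groups (FDR = 0.0306) and with another filter on low counts (FDR = 0.0429). Of its exons, 290 bases overlap *Acaa1a*, a peroxisomal thiolase gene on the opposite strand that was at 88.3 to 156 CPM in ISC and 349 to 762 in AE. Libraries were made with a directional kit, but strand-specific values are named for the study's genome tracks and not for the counts, and a part of *Acaa1a* in the level of *Myd88* was not tested.

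The promoter window of *Myd88* held 1 match to the core motif of interferon regulatory factors, read on both strands, which 2.97% of promoters hold. The stretch outside annotated exons, chr9:119340042-119340268 on the minus strand of GRCm38.p6, is printed with the match in capitals because factors of this family act in the same pathway.
*Myd88*: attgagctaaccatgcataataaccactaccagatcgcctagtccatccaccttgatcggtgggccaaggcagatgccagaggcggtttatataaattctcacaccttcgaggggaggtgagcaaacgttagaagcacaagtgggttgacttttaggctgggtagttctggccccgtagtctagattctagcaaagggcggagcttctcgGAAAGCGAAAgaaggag

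Over the family, 5 of 9 members tested passed between AE and ISC of young mice, 2 higher and 3 lower in AE. Of all 16681 genes, 27.7% were called higher and 25.4% lower, so the members were called at a rate near that of genes in general. In aged mice 7 of 10 passed, 2 higher and 5 lower, against 30.0% called higher and 34.1% lower of 15855 genes. The median log2 fold change of the members was -1.14 in young and -0.96 in aged mice, where that of all genes was 0.15 and -0.13. *Tlr1*, *Tlr3*, *Nod1* and *Cd14* were called at both ages, and both ages gave them the same direction.

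**Figure D2:**
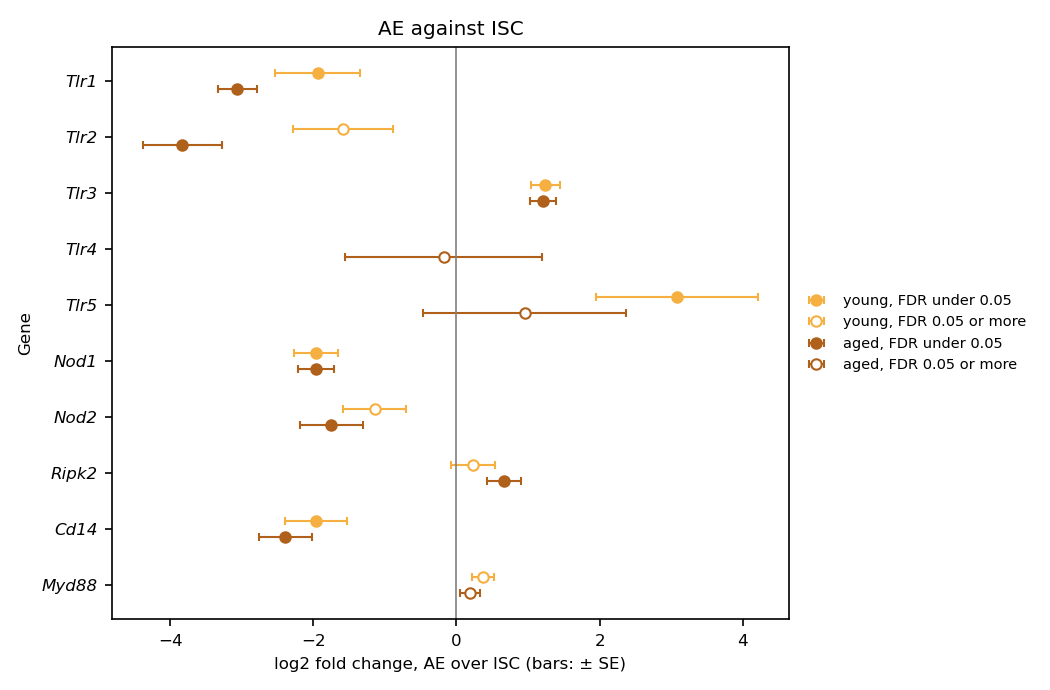
Log2 fold change of AE over ISC (horizontal axis, bars ± SE from the fit, 3 libraries per group) for each member in young and aged mice, with filled points where the FDR was under 0.05. *Tlr1*, *Nod1* and *Cd14* lie left of 0 and *Tlr3* right of 0 with filled points at both ages; *Tlr4* was not tested in young mice, and *Tlr5* has the widest bar of the young set.

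Aged was compared with young to ask which genes change in old age. In ISC no member passed, with log2 fold changes between 0.04 and 0.36 for the 8 members above the floor and an FDR of 1.000 for all 10. Across the 15552 genes tested in ISC, edgeR's quasi-likelihood test called 0%, while 695 had an unadjusted p under 0.05 and DESeq2 called 59. None of the 10 members was among those 695 or those 59. In AE, 0 of 9 members tested passed (FDR from 0.833 to 0.956). Of 16265 genes 0% were called there, with 809 at an unadjusted p under 0.05, of which *Ripk2* and *Tlr2* were members, and 17 called by DESeq2, of which none was.

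Estimated age effects were near 0 for *Myd88*, *Tlr3* and *Nod1*. For *Myd88* the log2 fold change of aged over young was 0.04 ± 0.13 SE in ISC and -0.05 ± 0.15 in AE. For *Tlr3* it was 0.05 ± 0.22 in ISC and 0.10 ± 0.14 in AE, and for *Nod1* 0.06 ± 0.25 and 0.14 ± 0.33. In ISC *Tlr1* had an age effect of 0.36 ± 0.20, without passing the test. For *Cd14* it was 0.10 ± 0.37 in ISC and -0.26 ± 0.45 in AE and for *Nod2* 0.09 ± 0.34 and -0.45 ± 0.55. The errors of *Cd14*, *Nod2* and *Nod1* were wide enough that moderate changes were not detectable.

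*Ripk2* had higher levels in all aged libraries than in all young ones in both cell types, and was the member with the lowest unadjusted p in AE. In ISC its level was 3.59 ± 0.41 CPM (SD, n = 3) at the young and 4.57 ± 0.38 CPM at the old age, which differ by 0.36 ± 0.23 SE on the log2 scale (FDR = 1.000). In AE it was 4.18 ± 0.92 CPM and 7.63 ± 1.23 CPM, which differ by 0.87 ± 0.29 SE (unadjusted p = 0.0159, FDR = 0.833 in edgeR's quasi-likelihood test). Without any single library the AE estimate stayed between 0.75 and 1.08. Of 14723 genes tested in both cell types, 0.346% had all aged libraries above all young ones in both. Some marker sums were also apart by age. In AE the sum of 10 enterocyte markers was 53274 to 63790 CPM in young and 66569 to 80928 CPM in aged libraries. In ISC the T cell marker sum was 6.96 to 19.9 CPM in young and 2.49 to 3.02 CPM in aged libraries, and the goblet cell marker sum 1979 to 2226 and 1379 to 1890 CPM. The part of these cell types in the levels of *Ripk2* was not tested.

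*Ripk2* was the 1 member of 10 whose ages did not overlap in ISC, where 8.86% of all genes did not overlap. In AE the ages did not overlap for 2 of 9 members, *Ripk2* and *Tlr5*, where 10.9% of all genes did not. *Tlr5* was lower in every aged AE library than in every young one, by a log2 fold change of -1.53 ± 0.94 (FDR = 0.833), with at most 4 counts in each aged library.

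*Tlr2* and *Tlr1* had lower group means in aged than in young AE. *Tlr2* fell short of the threshold with -1.86 ± 0.75 SE (unadjusted p = 0.0354, FDR = 0.833 in edgeR's quasi-likelihood test), and young AE 3, at 0.622 CPM, was within the range of the aged libraries. For *Tlr1* the log2 fold change was -0.70 ± 0.65 (FDR = 0.863). The higher young values of both came from young AE 1 and young AE 2, the libraries with the most stem cell signal in AE, where *Lgr5* was at 2.05 and 4.72 CPM and the stem cell marker *Olfm4* at 90.1 and 338 CPM, against *Lgr5* at 0.550 to 1.34 and *Olfm4* at 23.1 to 61.2 in the other 4. Both genes were higher in ISC than in AE in aged mice, and the part of remaining stem cells in the AE values was not tested.

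**Figure D3:**
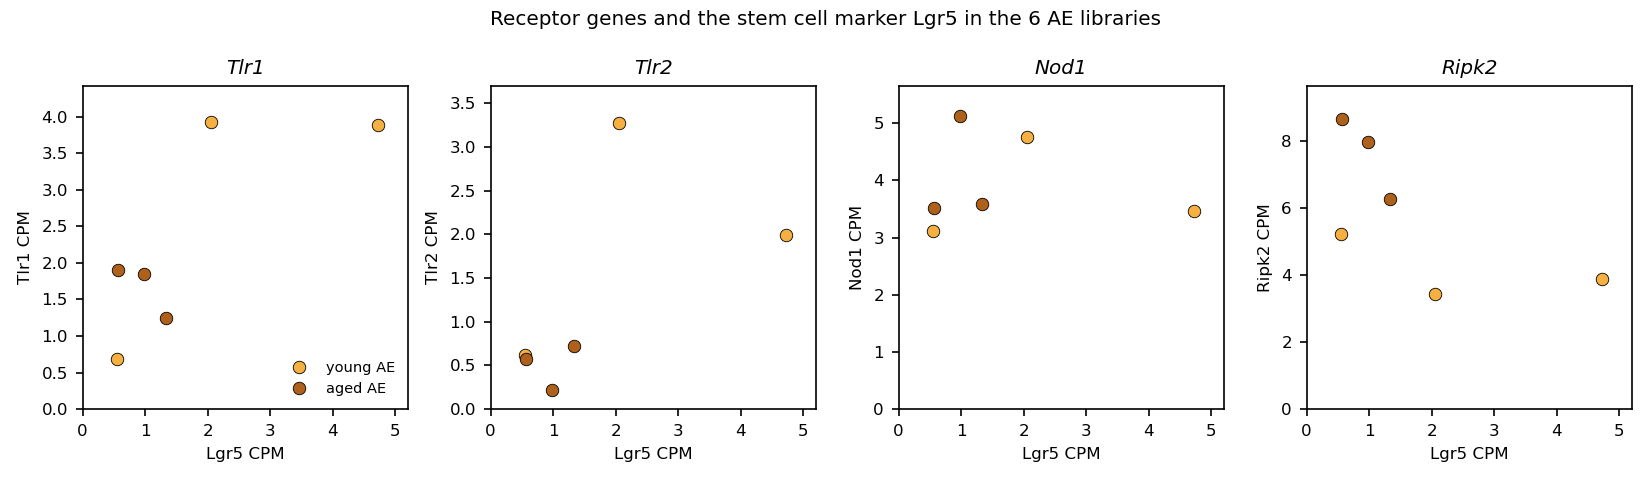
CPM of *Tlr1*, *Tlr2*, *Nod1* and *Ripk2* (vertical axes, linear, from 0) against CPM of *Lgr5* (horizontal axis) in the 3 young and 3 aged AE libraries, 1 point each. The 2 young libraries with *Lgr5* at 2.05 and 4.72 CPM have the highest *Tlr1* and *Tlr2*, whereas *Nod1* stays between 3.11 and 5.13 CPM and *Ripk2* is highest in the 3 aged libraries.

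The age effect was compared between the cell types in 1 fit of all 12 libraries. No member of 10 passed (FDR = 1.000 for each), and 1 gene of 17377 (0.00575%) was called, *Adora2b*, an adenosine receptor gene named here after its value was seen. DESeq2 called 43 genes and edgeR with the replicate block 21, none of them members, and edgeR without it gave 757 genes an unadjusted p under 0.05. The member among those 757 was *Tlr2*, whose age effect in AE minus that in ISC was -2.16 ± 1.00 SE on the log2 scale (unadjusted p = 0.0495 in edgeR's quasi-likelihood test). For *Ripk2* the difference was 0.50 ± 0.36, for *Tlr1* -1.02 ± 0.70, and for *Myd88* -0.11 ± 0.19.

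**Figure D4:**
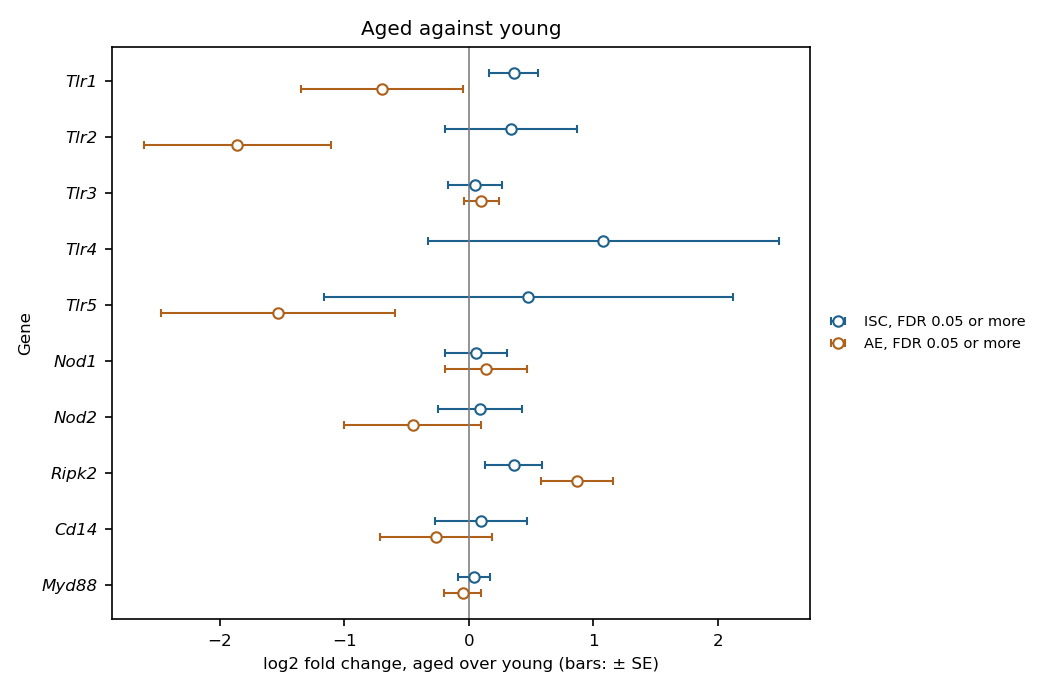
Log2 fold change of aged over young (horizontal axis, bars ± SE from the fit, 3 libraries per group) for each member in ISC and AE, with open points where the FDR was 0.05 or more, as it was for all. *Ripk2* lies right of 0 by more than its bar in both cell types, *Tlr2* lies at -1.86 in AE, and *Tlr4* was not tested in AE.

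A list of 98 further genes of these pathways, all in the table, was read beside the members. Between AE and ISC of young mice 31 of 83 tested were higher in AE, 11 lower and 41 not called, and in aged mice 35 of 81 were higher, 11 lower and 35 not called. Over all genes tested the shares called higher and lower were 27.7% and 25.4% in young and 30.0% and 34.1% in aged mice. The median log2 fold change was 0.78 in young mice, or 0.59 with genes at the floor set to their bounds, and 0.39 in aged mice, against 0.15 and -0.13 for all genes. Between the ages 0 of 79 were called in ISC and 0 of 80 in AE by edgeR's quasi-likelihood test, with 5 and 7 at an unadjusted p under 0.05.

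Most endosomal receptors other than *Tlr3* were at or near the floor. *Tlr7*, *Tlr8*, *Tlr9*, *Tlr11* and *Tlr13* had at most 4 counts in any library. *Tlr12* reached at most 28 counts and in aged mice was called higher in AE, at least 4.25-fold against 3 counts per ISC library (FDR = 0.0103). *Unc93b1*, which carries endosomal receptors to their compartment, was at 33.3 to 65.1 CPM in all libraries, and of 6 co-receptor and chaperone genes tested at each age *Cd36* was higher in AE and the chaperone *Cnpy3* lower. *Cd36*, a scavenger receptor and fatty acid transporter that also assists TLR2, had the largest rise of the list in aged mice, from 5.05 ± 4.04 CPM (SD, n = 3) in ISC to 292 ± 144 in AE (log2 fold change 5.82 ± 0.64 SE, FDR = 2.93e-05), and in young mice rose by 4.28 ± 1.14 (FDR = 0.0134).

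The adaptors were unlike one another. *Ticam1*, which encodes TRIF, the adaptor of TLR3, went with *Tlr3*: it was at 31.0 ± 3.22 CPM (SD, n = 3) in young ISC and 112 ± 2.91 in young AE (log2 fold change 1.85 ± 0.15 SE, FDR = 0.000132), and at 28.7 ± 2.51 and 121 ± 7.79 in aged mice (2.01 ± 0.15 SE, FDR = 2.61e-06). *Pik3ap1*, which links Toll-like receptors to phosphoinositide signalling, was lower in AE, with log2 fold changes of -2.02 ± 0.62 in young (FDR = 0.0241) and -3.12 ± 0.57 in aged mice (FDR = 0.000919). *Ticam2*, the bridging adaptor of TLR4, was called lower in AE of young mice (FDR = 0.0402), where no AE library had more than 3 counts and the ISC level was at least 1.54-fold higher. *Tirap*, which brings MyD88 to TLR2 and TLR4, was at 14.3 to 15.0 CPM in young ISC and 10.8 to 13.2 CPM in young AE and was not called at either age.

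The kinases and factors that follow the adaptors were more often called higher in AE than lower. Of 22 receptor-proximal kinases and ligases 10 were higher and 2 lower in AE of young mice and 12 and 3 in aged mice. Of 13 genes of the IKK complex and the NF-kB and IRF factors 7 were higher and 1 lower in young mice, and 7 higher and 0 lower in aged mice. Over all genes tested, 27.7% were higher and 25.4% lower in young mice, and 30.0% and 34.1% in aged mice. The largest falls of the list in aged mice were *Peli2*, a ubiquitin ligase of the IRAK kinases, at -4.06 ± 0.32 (FDR = 3.61e-06), *Tnf*, and the epithelial chemokine *Ccl28* at -3.32 ± 0.19 (FDR = 7.54e-07). The rises after *Cd36* in aged mice were *Ccl5*, a chemokine that T cells also make, at 4.25 ± 0.69 (FDR = 0.000406), and *Card9*, an adaptor known from myeloid cells, at 4.18 ± 0.83 (FDR = 0.00152). The summed level of 10 T cell markers was 2.49 to 3.02 CPM in aged ISC and 10.4 to 48.2 CPM in aged AE, and its part in *Ccl5*, like that of the myeloid marker sum in *Card9*, was not tested.

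In young mice the called genes at the upper end of the fitted fold changes were *Cxcl2*, *Cd36* and *Saa1* and those at the lower end *Tnf*, *Ticam2* and *Icam1*. Except for *Cd36* and *Icam1* these folds are against a group with at most 3 counts per library, so that they fix no order of size within the list. *Cxcl2*, a chemokine for neutrophils, had 0 counts in young ISC and was at least 1.40-fold higher in AE against 3 counts per library (FDR = 0.0280). *Saa1*, an acute phase gene, was at least 3.86-fold higher (FDR = 0.0421). The cytokine gene *Tnf* was at least 6.73-fold higher in young ISC than in AE (FDR = 0.0140), at 1.19 CPM against 0.0898, and in aged mice was at 1.39 CPM in ISC and 0.145 in AE (FDR = 0.0169). *Icam1*, an adhesion molecule, was at 1.34 CPM in young ISC and 0.150 in AE (log2 fold change -3.20 ± 0.73 SE, FDR = 0.00669).

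Genes listed as inhibitors, *Nfkbiz* among them, were more often called higher in AE than lower. Of 14 such genes 7 were called higher and 1 lower in young mice, and 8 higher and 1 lower in aged mice. The shares over all genes were 27.7% higher and 25.4% lower in young mice, and 30.0% and 34.1% in aged mice. *Tollip*, which binds IRAK1, was higher by 1.69 ± 0.21 SE on the log2 scale in young (FDR = 0.000506) and 1.83 ± 0.17 in aged mice (FDR = 1.15e-05). *Tnfaip3*, which encodes the ubiquitin-editing enzyme A20, rose by 1.87 ± 0.23 (FDR = 0.000475) and 1.79 ± 0.25 (FDR = 0.000147), and its partner *Tnip1* by 1.57 ± 0.19 and 1.76 ± 0.19. *Sigirr*, an inhibitory receptor of the family, was higher by 0.95 ± 0.18 and 1.21 ± 0.15, and *Nfkbib* and *Nfkbiz*, relatives of the NF-kB inhibitor IkB, by 0.95 and 1.25 in young and 1.04 and 1.05 in aged mice. *Cyld*, a deubiquitinase, was called in young mice at 0.47, and *Nfkbia* at 0.60 and *Pparg* at 1.15 in aged mice. *Otulin*, which removes linear ubiquitin, was lower at both ages, with log2 fold changes of -0.95 ± 0.18 and -1.18 ± 0.21.

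**Figure D5:**
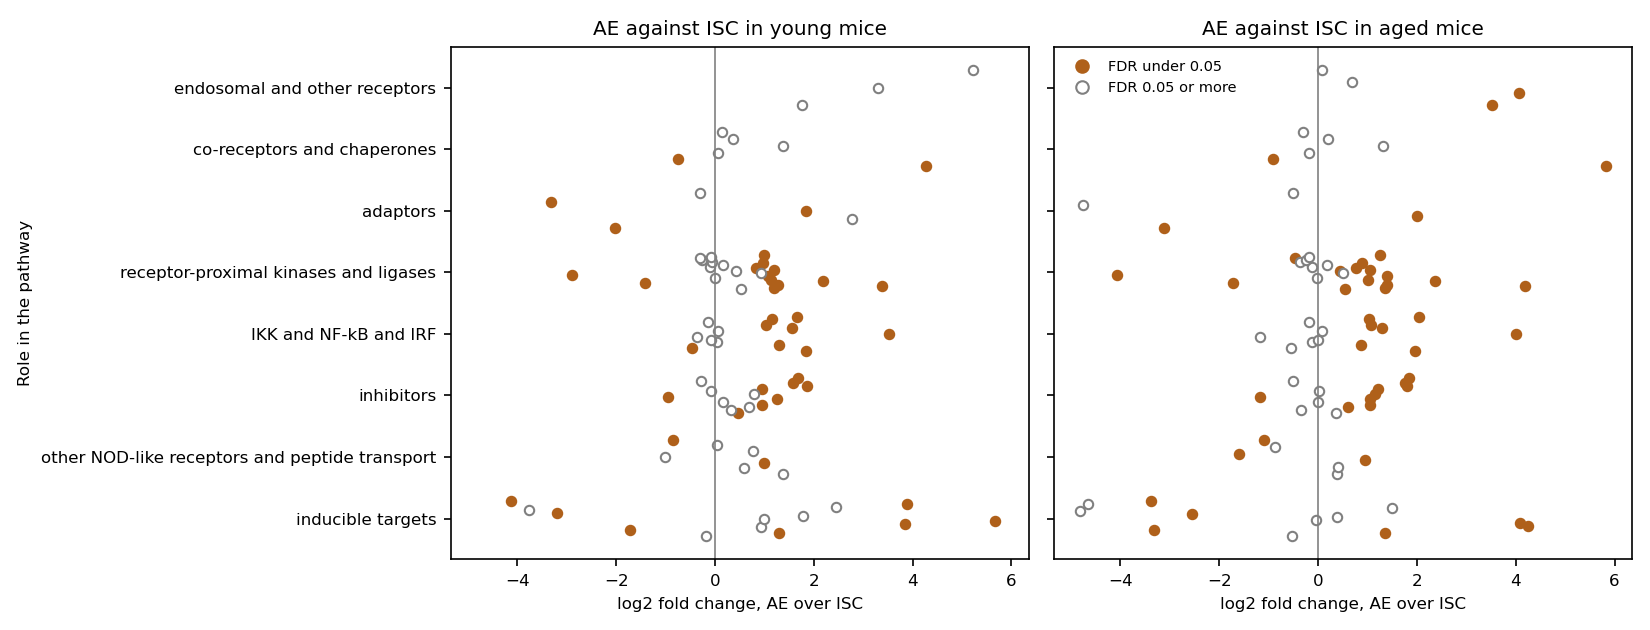
Log2 fold change of AE over ISC (horizontal axis) for each tested gene of the list of 98, by role (rows), in young mice (left) and aged mice (right), 1 point per gene, filled where the FDR was under 0.05. Filled points of the IKK, NF-kB and IRF row and of the inhibitors row lie right of 0 except 1 in each row in young mice and 1 among the inhibitors in aged mice.

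Genes with the most similar pattern were sought over the 12 libraries among 10962 genes with at least 10 counts in each, which left out *Tlr2*, *Tlr4*, *Tlr5* and *Nod2*. The correlations of log2 CPM are descriptions, since the libraries share the division into cell types. *Tlr1* was most like *Sept6* (r = 0.987) and *Pkp1* (r = 0.986), *Nod1* like *Actr5* (r = 0.990) and *Zfp446* (r = 0.989), and *Cd14* like *Ttc3* (r = 0.980) and *Filip1l* (r = 0.978). *Tlr3* was most like *Ddx58* (r = 0.988), which encodes the cytosolic RNA sensor RIG-I, and *Arel1* (r = 0.988). *Myd88* was most like *Rabgef1* (r = 0.968) and *Wbp1* (r = 0.960). *Ripk2* had the weakest likeness of the 6, to *Usp28* (r = 0.926) and *Rtkn* (r = 0.906).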

How the data were processed

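Libraries were made from 35 ng of total RNA with a directional kit after poly(A) selection and 14 PCR cycles and read as 50 bp ends. Per the submitters' notes and methods, the authors trimmed adaptors with Trim Galore 0.4.4, mapped reads to GRCm38 with HISAT2 2.1.0 and, in SeqMonk, counted those with a unique place over merged exons. The deposited counts are raw, for 34245 genes with 46 repeated names. The annotation release is not given in the sources used here, and strand-specific values are named for genome tracks but not for the counts. A second table, of the authors' differential genes with their log2 values and FDR, was not used.

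Columns were grouped by the cell type and age that their own names give. In 8 of 12 sample titles the code contradicts the words after it, and groups follow the code. The depth was 11893817 to 110794420 counts. Within each group libraries differed beyond sampling noise, at a chi-square per degree of freedom of 29 to 240.

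For each comparison, genes that reached 10 counts in sum were kept, TMM factors were computed, and edgeR 4.0.16 in R 4.3.3 gave the quasi-likelihood test, with Benjamini-Hochberg adjustment over all genes tested (FDR) and a threshold of 0.05. An exact permutation test of 3 against 3 libraries cannot go below 0.1 and was not used. The methods list 3 mice per cohort for both cell types, so the code was taken to pair ISC and AE at each age. Deviations from the group means went together within a code (correlations over genes of 0.112, 0.147 and 0.245 in young and 0.138, 0.0966 and 0.176 in aged mice, against -0.18 to 0.0448 for other codes of the same age). Libraries of the same number at the other age, from different mice, had -0.0224 and 0.248 in ISC and 0.139 and 0.146 in AE. Whether ISC and AE of a code came from the same mouse was not tested. The alternatives were DESeq2 1.42.0, RLE and upper-quartile scaling, other filters, the replicate block, a fit on all 4 groups and leaving out each library; a robust fit with bias-adjusted deviances was chosen after seeing the data. The members and lists were chosen with earlier results of these data known. Of the pathway list, the 3 largest rises and falls called per comparison and all called adaptors and inhibitors were to be named, together with 8 markers and the 2 genes most like each member; other genes named were chosen after their values were seen. Exon lengths and shared stretches of 50 bases came from GENCODE M21 transcripts, and promoters from RefSeq.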

Additional observations from a re-analysis of the deposited data

How the results depend on the processing

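Of 711 values of the members recomputed under another setting, 646 kept their direction and side of the threshold, 16 lost a call, 11 gained one and 38 changed sign. The calls of *Tlr3*, *Nod1* and *Cd14* between AE and ISC remained at both ages under all settings run, as did those of *Tlr1*, *Tlr2* and *Nod2* in aged mice. In young mice 5 members were called, and 3 to 6 when a library was left out, with 3 without young ISC 1 or young ISC 2; *Nod2* passed without young AE 2 (FDR = 0.0342). Apart from *Tlr2*, *Nod2* and *Tlr5* in young mice, the replicate block changed no call of a member between the cell types at either age. Upper-quartile scaling moved the median log2 fold change of all genes between AE and ISC from 0.15 to 0.03 in young mice and from -0.13 to -0.22 in aged mice.

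No member was called by age under any setting. In ISC the genes called by age numbered 0, and 59 with DESeq2, 1 without a filter, 230 with the replicate block, 2 in a fit of all 4 groups and 0 to 1 without a library (1 without aged ISC 1). In AE they numbered 0, and 17 with DESeq2, 2 without a filter, 18 with the block and 0 to 1 without a library (1 without young AE 3). For the difference of the age effect they numbered 1, and 43 with DESeq2, 21 with the block and 0 to 3 without a library (3 without aged ISC 5, 2 without young AE 3 and 0 without 9 of the others). Across the ages the codes name different mice, so the block has no pairing of mice there to rest on. Deviations of young and aged libraries of the same number correlated at -0.0224 and 0.248 in ISC and at 0.139 and 0.146 in AE. What the number stands for was not tested. Within a cell type the block joined young and aged libraries by the number of the code, and young 2 and aged 5 had no partner. The age effect with the block thus came from libraries 1 and 3 of each age. That effect turned to -0.27 for *Tlr3*, -0.14 for *Nod1* and -0.39 for *Nod2* in ISC and to -0.07 for *Nod1* in AE.

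Signs also turned, with no call on either side, when a library was left out. In ISC the age effect then ranged from -0.24 to 0.77 for *Tlr2*, -0.12 to 0.23 for *Tlr3*, -0.07 to 4.35 for *Tlr5*, -0.08 to 0.35 for *Nod1*, -0.23 to 0.29 for *Nod2*, -0.01 to 0.11 for *Myd88* and -0.22 to 0.31 for *Cd14*. In AE it ranged from -0.05 to 0.33 for *Nod1*, -0.12 to 0.05 for *Myd88* and -0.63 to 0.01 for *Cd14*. *Ripk2* between AE and ISC of young mice ranged from -0.04 to 0.32 and *Tlr4* in aged mice from -1.22 to 0.42. The difference of the age effect ranged from -0.14 to 0.22 for *Tlr3*, -5.93 to 2.25 for *Tlr5* and -0.22 to 0.21 for *Nod1*. Counts of *Tlr4* and *Tlr5* were too few to fix a direction by age.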
